A study of Mus musculus with 35 samples.

Results

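The genes described here are 9 transcription factors that establish or maintain the microglial lineage, taken by name from the 55401 genes of the deposited count table: Spi1, Irf8, Runx1, Cebpa, Sall1, Sall3, Mef2a, Mef2c and Maf. All 9 were matched and all 9 passed the filter on low counts (at least 0.5 counts per 1000000 fragments, CPM, in at least 5 mice), which kept 17612 genes. The mRNA came from CD45+ve cells caught from whole brain by immunopanning, in which a dish coated with an antibody against the leukocyte surface protein CD45 holds microglia while other cells are washed off. The animals were wild-type C57BL/6 mice, untreated and of both sexes, at postnatal day 6 (P6, 4 females and 6 males), P15 (6 females and 6 males) and 8 weeks (6 females and 6 males), with 1 library per mouse. A further P6 female (replicate 6) was left out of the 34 mice and is given separately. The study states that an outlier was removed without naming it in the text, and this mouse is absent from its plotted data. The antibody also holds monocytes, border macrophages and lymphocytes, so each library is a bulk sample of CD45+ve cells.

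Microglia descend from yolk sac macrophages that settle in the embryonic brain. Their identity is written by transcription factors in layers. PU.1, IRF8, RUNX1 and C/EBPα are lineage factors shared with other myeloid cells, and MEF2, MAF and SALL proteins are added in the brain. SALL1 is the factor that most clearly separates microglia from other macrophages, and microglia that lose it take on an inflammatory, less ramified state.

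Between P6 and 8 weeks the mRNA of 8 of the 9 factors rose and that of Spi1, which encodes PU.1, did not pass the test. The rise was led by Cebpa (3.30-fold), Mef2a (2.79-fold), Sall3 (2.6-fold), Irf8 (2.35-fold) and Sall1 (2.31-fold), while Runx1 (1.57-fold), Mef2c (1.37-fold) and Maf (1.26-fold) rose less. Over the same span 37.8% of all genes tested were called higher. By interval, Cebpa, Sall1 and Maf were called higher from P6 to P15 and not later, Runx1 and Mef2c were called from P15 to 8 weeks and not earlier, and Sall3, Irf8 and Mef2a were called higher in both. The difference between the intervals was not tested, so these calls do not show that the factors differ in timing. With the level of neuron markers as a covariate all 5 calls from P15 to 8 weeks were lost and 5 factors were called higher from P6 to 8 weeks. Over all 17612 genes that fit called 3078 and 5800 higher in these comparisons, and the fit without the covariate 4221 and 6654. With the GC tilt of the libraries, a measure of base composition described further on, as a covariate the later call of Mef2c was lost. In the fit of 34 mice without a covariate no factor was called lower at a later age. Maf was called lower from P15 to 8 weeks with either covariate or without P15 male 1. Spi1 was called lower from P6 to 8 weeks with the neuron markers.

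The sequence just upstream of the RNA start is printed for Cebpa, Irf8, Mef2a and Sall1, from among the factors that led the rise from P6 to 8 weeks, and for Mef2c, the relative of Mef2a that rose less. Each line gives the 250 bases before the RNA start, 5′ to 3′ on the strand of the gene, from RefSeq on GRCm38.p6, at chr7:35119043-35119292 (Cebpa, plus strand), chr8:120736108-120736357 (Irf8, plus), chr7:67372859-67373108 (Mef2a, minus), chr8:89044163-89044412 (Sall1, minus) and chr13:83503784-83504033 (Mef2c, plus). Where RefSeq lists several starts, the one that coincides with the start of the gene in GENCODE was taken. Capitals mark letters that match TATAAA (the TATA box), CCAAT (the CCAAT box), GGGCGG (the GC box) or GAGGAA (a purine-rich box of the kind PU.1 binds) on either strand.
Cebpa: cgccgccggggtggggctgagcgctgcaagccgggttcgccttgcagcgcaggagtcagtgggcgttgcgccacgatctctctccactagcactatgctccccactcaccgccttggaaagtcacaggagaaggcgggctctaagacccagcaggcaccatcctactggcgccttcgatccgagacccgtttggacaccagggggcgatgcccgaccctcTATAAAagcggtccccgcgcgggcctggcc
Irf8: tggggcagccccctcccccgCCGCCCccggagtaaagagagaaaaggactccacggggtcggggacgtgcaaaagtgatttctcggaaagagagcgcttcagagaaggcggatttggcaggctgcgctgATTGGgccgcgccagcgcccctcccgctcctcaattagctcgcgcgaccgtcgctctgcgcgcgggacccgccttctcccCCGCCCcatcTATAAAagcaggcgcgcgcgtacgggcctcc
Mef2a: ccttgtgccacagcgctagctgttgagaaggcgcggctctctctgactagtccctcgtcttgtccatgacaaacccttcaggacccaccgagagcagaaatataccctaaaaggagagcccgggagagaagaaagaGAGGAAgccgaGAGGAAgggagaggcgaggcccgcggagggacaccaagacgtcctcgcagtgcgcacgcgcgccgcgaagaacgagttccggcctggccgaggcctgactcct
Sall1: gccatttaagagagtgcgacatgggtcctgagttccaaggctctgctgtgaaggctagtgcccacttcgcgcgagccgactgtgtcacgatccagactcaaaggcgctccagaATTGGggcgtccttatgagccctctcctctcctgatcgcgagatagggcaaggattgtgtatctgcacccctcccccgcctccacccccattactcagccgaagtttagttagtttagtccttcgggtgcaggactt
Mef2c: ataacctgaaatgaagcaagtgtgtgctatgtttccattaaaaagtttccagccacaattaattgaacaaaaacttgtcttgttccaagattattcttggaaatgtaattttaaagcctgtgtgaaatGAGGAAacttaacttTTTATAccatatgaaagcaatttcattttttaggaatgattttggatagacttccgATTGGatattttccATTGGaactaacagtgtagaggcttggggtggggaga

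The promoters of Cebpa and Irf8 each held TATAAA on the strand of the gene, at −30 to −25 of the RNA start of Cebpa and at −31 to −26 of that of Irf8. These letters were present in 12.4% of the 32851 upstream windows of the same length in RefSeq. Irf8 also held CCAAT on the opposite strand (33.8% of windows) and GGGCGG on the opposite strand at 2 positions (32.7%). Mef2a held GAGGAA at 2 positions, −114 to −109 and −103 to −98 (23.3% of windows), and Sall1 held CCAAT on the opposite strand alone. In Mef2c the same search found 1 purine-rich box, a TATA box on the opposite strand at −107 to −102, far from the start, and CCAAT on the opposite strand at 2 positions. The windows also differed in base composition, with 66.4% G and C in Cebpa, 67.2% in Irf8, 61.6% in Mef2a and 56.4% in Sall1 against 33.6% in Mef2c. Both composition and matches depend on the start taken: windows of other RefSeq starts held 44.8% and 49.6% G and C in Mef2c, 54.0% in Irf8, and 74.4% and 78.4% in Sall1. Those of Sall1 held GC boxes, the first of the other Mef2c starts had a TATA match on the opposite strand at −22 to −17, and the core of a MAF site stood at the other Irf8 start and at the last Mef2c start. None of the 5 printed windows held GAGGAAGT (PU.1, 2.44% of windows), GGAANNGAAA (the composite of PU.1 and IRF8, 2.30%), GAAANNGAAA (the repeat bound by IRF proteins, 2.98%), TTGCNNAA (C/EBP, 9.56%), TGTGGT (RUNX, 14%), CTANNNNTAG (MEF2, 3.20%) or TGCTGA (the core of a MAF site, 16.1%), all searched on both strands. GAGGAA lies within GAGGAAGT and can overlap the composite, and the motifs shown in capitals were added to the search after the sequences had been read. A match is a run of letters and was not tested for binding.

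The libraries held 23316107 to 38965078 counted fragments (median 32742525). At that depth 3 counts, the floor used here for counting error, were 0.077 to 0.129 CPM. The lowest count of any factor in any of the 34 mice was 1840, for Sall3. The 9 markers of microglia had a summed level of 11115 to 20319 CPM at P6, 22231 to 48132 at P15 and 31246 to 46650 at 8 weeks, and all 9 rose from P6 to 8 weeks (median log2FC 1.62). Other cell types were present in every group, with no marker of any list at 0 in all mice of an age. The 8 neuron markers summed to 305 to 1006 CPM at P6, 126 to 955 at P15 and 61.5 to 290 at 8 weeks, and the 8 markers of neural progenitors and immature neurons fell without exception (648 to 2049 CPM at P6 and 103 to 262 at 8 weeks). Of 6 astrocyte markers, 4 were called higher and 0 lower from P6 to P15 and 4 higher and 1 lower from P6 to 8 weeks, with a summed level whose median went from 848 CPM (P6) to 2992 (P15) and 2544 (8 weeks). Those of the oligodendrocyte lineage were highest at P15 (median 523, 1352 and 482 CPM), and those of endothelial cells were lowest at P6 (73.1, 153 and 152 CPM). The part of these cells in the changes of the factors was not tested. In a bulk sample, fewer cells of a type and less RNA per cell cannot be told apart, so every change below is a change in the share of the library.

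Among the libraries, P15 male 1 stood apart in base composition. The GC tilt of a library is the log2 difference between its G and C rich and its A and T rich protein-coding genes (the top and bottom 20% by transcript composition, the factors left out), relative to the average over the mice. It was 1.64 in P15 male 1, whereas the other 33 mice lay between −0.62 (8-week male 2) and 0.69 (8-week male 4). The same mouse had the lowest level at P15 of Sall1 (364 CPM), Sall3 (94.9 CPM), Maf (498 CPM), Mef2a (106 CPM), Mef2c (132 CPM) and Runx1 (64.5 CPM). Calls of a factor between ages that change without this mouse, or with the tilt as a covariate, are given beside the result. Both settings were chosen after the data were seen.

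**Figure D1:**
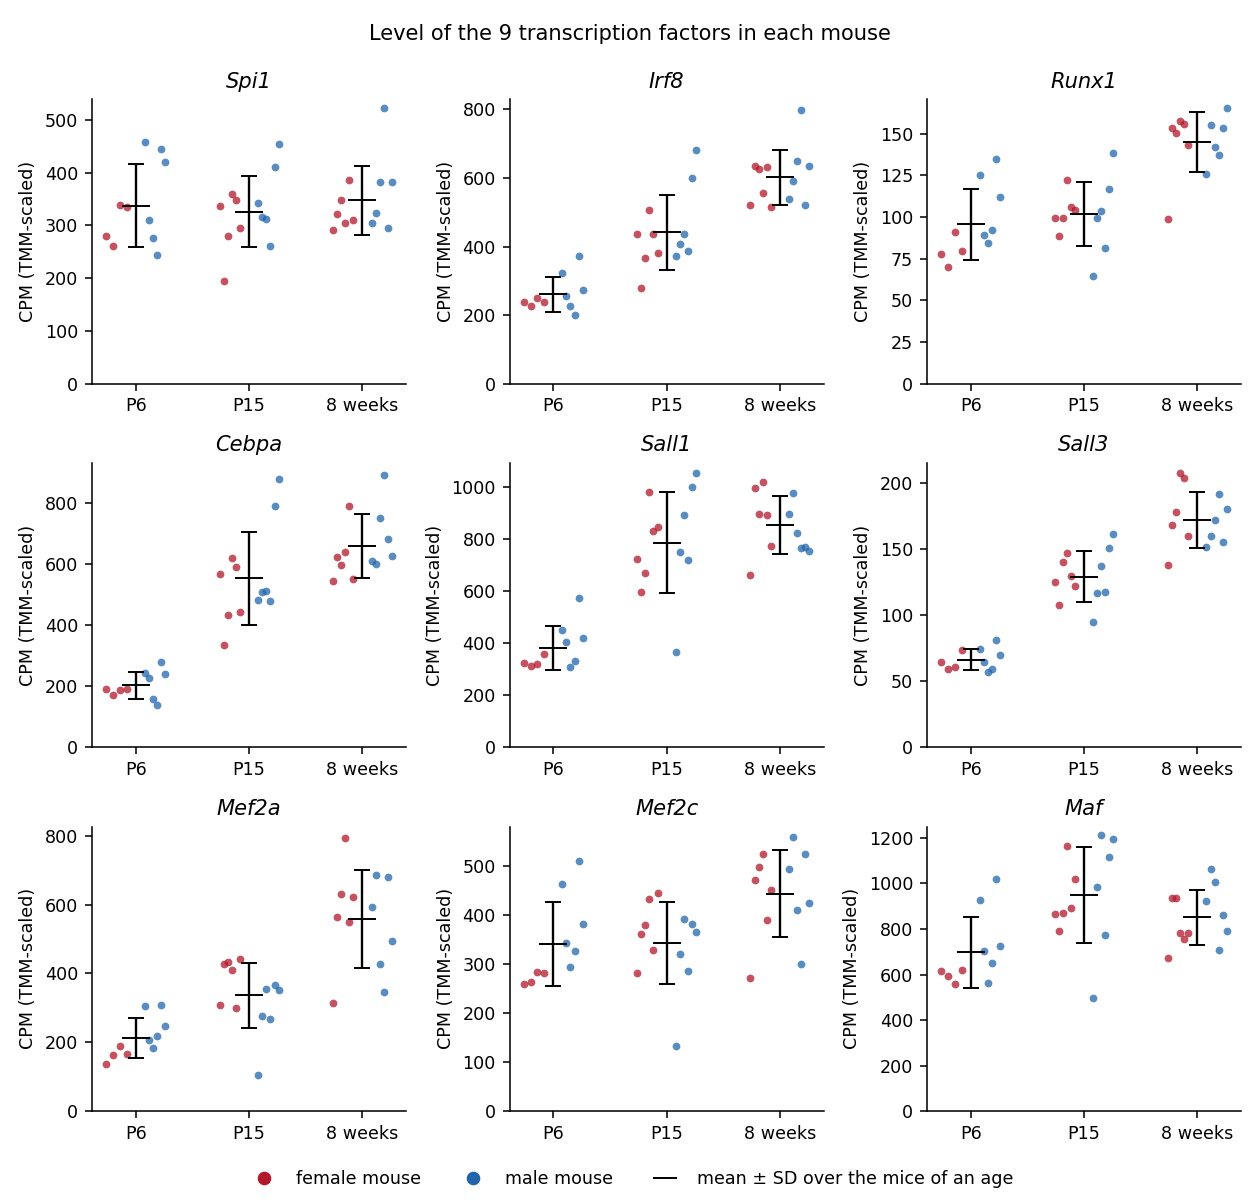
TMM-scaled CPM of the 9 transcription factors (vertical axes, each from 0) in each of 34 mice by age (horizontal axes). Points are mice (red for females, blue for males), and the black bar and whiskers are the mean and SD over the 10, 12 and 12 mice of an age. Cebpa and Sall3 at P15 lie wholly above P6, whereas Spi1 spans 244 to 458 CPM at P6 and 292 to 522 at 8 weeks.

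Spi1 (ENSMUSG00000002111, chr2:91082390-91115756, plus strand) encodes PU.1, the ETS factor without which no macrophages form. Its level was 244 to 458 CPM at P6 (median 322), 196 to 455 at P15 (median 327) and 292 to 522 at 8 weeks (median 322). The 3 ranges lay over one another, and only 1 mouse at 8 weeks was above every P6 mouse. The log2FC was −0.02 ± 0.123 (SE) from P6 to P15 (edgeR quasi-likelihood test with Benjamini-Hochberg adjustment, FDR = 0.891), 0.09 ± 0.116 from P15 to 8 weeks (FDR = 0.52) and 0.07 ± 0.123 from P6 to 8 weeks (FDR = 0.606). Its change from P6 to 8 weeks stood at the 51.5th percentile of all genes tested. With the neuron markers as a covariate the log2FC from P6 to 8 weeks was −0.32, which was called lower (edgeR, FDR = 0.0421, in a range of 0.0421 to 0.987 over the 17 alternatives).

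Irf8 (ENSMUSG00000041515, chr8:120736358-120756694, plus strand) encodes an interferon regulatory factor that binds DNA as a partner of PU.1 and is needed for microglial development. Its level was 200.3 to 373 CPM at P6 (median 245), 279 to 681 at P15 (median 422) and 514 to 799 at 8 weeks (median 608). All 12 mice at 8 weeks were above every P6 mouse, and 9 of the 12 P15 mice were. The log2FC was 0.78 ± 0.116 from P6 to P15 (edgeR, FDR = 9.16e-07), 0.45 ± 0.108 from P15 to 8 weeks (FDR = 0.00102) and 1.23 ± 0.118 from P6 to 8 weeks (FDR = 7.02e-11). The last change was past 2-fold (edgeR glmTreat, FDR = 0.0302), a call that 9 of the 17 alternatives also gave. It was not past 2-fold without P6 female 1, 2 or 3 (log2FC 1.19, 1.18 and 1.2). Nor was it past 2-fold in limma-voom (1.24), in DESeq2 (1.23) or with library size alone as the scaling (1.09). The same held with at least 10 counts required in every mouse (1.19) and with the neuron markers as a covariate.

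The balance of Irf8 and Spi1 within a library differed between the ages. The log2 ratio of Irf8 to Spi1, in counts per kb of merged exons, was −2.02 to −1.60 at P6 (median −1.67), −1.27 to −0.81 at P15 (median −0.95) and −0.78 to −0.40 at 8 weeks (median −0.57). Ages did not overlap. The ratio rose by 0.79 from P6 to P15 and by 0.37 from P15 to 8 weeks, with every later mouse above every earlier one (12 of 12 in both). Two-sided permutation tests with 100000 resamples gave p = 1e-05 for each step, the smallest value these resamples allow, and 2e-05 when adjusted by Benjamini-Hochberg over the 15 comparisons of 5 ratios. A ratio within a library is untouched by the scaling of library sizes.

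Runx1 (ENSMUSG00000022952, chr16:92601466-92826149, minus strand) encodes the DNA-binding subunit of core binding factor, which opens the blood programme in the yolk sac. Its level was 70.2 to 135 CPM at P6 (median 90.1), 64.5 to 138 at P15 (median 102) and 98.6 to 165 at 8 weeks (median 152). P6 and P15 lay over each other, and 9 of 12 mice at 8 weeks were above every P15 mouse. The log2FC was 0.15 ± 0.105 from P6 to P15 (edgeR, FDR = 0.228), 0.51 ± 0.0993 from P15 to 8 weeks (FDR = 0.000116) and 0.65 ± 0.106 from P6 to 8 weeks (FDR = 2.03e-06). Both calls were lost with the neuron markers as a covariate, where the log2FC was 0.12 from P15 to 8 weeks (edgeR, FDR = 0.319, the highest of the 17 alternatives) and 0.21 from P6 to 8 weeks (FDR = 0.0529, also the highest). Cbfb, the partner subunit that stabilises RUNX1 on DNA, went the other way: it was 123 to 180 CPM at P6, 54.1 to 119 at P15 and 76.0 to 112 at 8 weeks, and fell by 0.53 on the log2 scale from P6 to 8 weeks (SE 0.0949, edgeR FDR = 1.0e-05). All 12 mice at 8 weeks were below every P6 mouse for Cbfb.

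Cebpa (ENSMUSG00000034957, chr7:35119293-35121928, plus strand) encodes C/EBPα, a basic leucine zipper factor that directs myeloid progenitors. Its level was 138 to 280 CPM at P6 (median 191), 334 to 877 at P15 (median 511) and 545 to 894 at 8 weeks (median 626). All 12 P15 mice and all 12 mice at 8 weeks were above every P6 mouse, while P15 and 8 weeks overlapped. The log2FC was 1.46 ± 0.134 from P6 to P15 (edgeR, FDR = 5.09e-11), past 2-fold (glmTreat, FDR = 0.00181), and 0.26 ± 0.121 from P15 to 8 weeks (FDR = 0.0772). From P6 to 8 weeks it was 1.72 ± 0.135 (FDR = 6.89e-13), also past 2-fold (glmTreat, FDR = 3.2e-06). The step from P15 to 8 weeks was called with the GC tilt as a covariate (log2FC 0.35, edgeR FDR = 0.0361, in a range of 0.0234 to 0.28 over the 17 alternatives).

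Cebpb encodes C/EBPβ, which takes part in acute inflammatory responses and recognises the same sites. It was 71.3 to 147 CPM at P6 (median 92.7), 105 to 236 at P15 (median 190) and 96.3 to 257 at 8 weeks (median 156). It too rose from P6 to 8 weeks (log2FC 0.72 ± 0.171, edgeR FDR = 0.000377), but by less than Cebpa. The log2 ratio of Cebpb to Cebpa, per kb, was −0.59 to 0.04 at P6 (median −0.13), −1.37 to −0.36 at P15 (median −0.68) and −1.92 to −0.29 at 8 weeks (median −1.35). It fell by 1.08 from P6 to 8 weeks, with 11 of 12 mice at 8 weeks below every P6 mouse (permutation test, p = 4e-05, adjusted p = 6.67e-05), and the SD at 8 weeks was 0.47 against 0.22 at P6.

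Sall1 (ENSMUSG00000031665, chr8:89027235-89044162, minus strand) encodes the zinc finger repressor that holds microglia in their resting state. Its level was 308 to 574 CPM at P6 (median 344), 364 to 1053 at P15 (median 789) and 663 to 1017 at 8 weeks (median 857). All 12 mice at 8 weeks and 11 of 12 at P15 were above every P6 mouse, and P15 male 1 was the exception. The log2FC was 1.09 ± 0.133 from P6 to P15 (edgeR, FDR = 2.17e-08), 0.12 ± 0.122 from P15 to 8 weeks (FDR = 0.444) and 1.21 ± 0.133 from P6 to 8 weeks (FDR = 1.49e-09). With the GC tilt as a covariate the step from P15 to 8 weeks was −0.05, also not called (edgeR, FDR = 0.785, in a range of 0.0503 to 0.906 over the 17 alternatives). The change from P6 to 8 weeks was not past 2-fold (glmTreat, FDR = 0.071). It was past it without P15 male 1 (log2FC 1.18, glmTreat FDR = 0.0482) and in 3 of the 17 alternatives in all.

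Sall3 (ENSMUSG00000024565) encodes a close relative of SALL1 that adult microglia also express. Its level was 56.9 to 81.3 CPM at P6 (median 64.8), 94.9 to 162 at P15 (median 127) and 138 to 208 at 8 weeks (median 170). All 12 P15 mice were above every P6 mouse. The log2FC was 0.97 ± 0.0882 from P6 to P15 (edgeR, FDR = 5.09e-11), 0.41 ± 0.0813 from P15 to 8 weeks (FDR = 0.000122) and 1.38 ± 0.0895 from P6 to 8 weeks (FDR = 6.08e-15), the last past 2-fold (glmTreat, FDR = 7.56e-05). The log2 ratio of Sall3 to Sall1, per kb, averaged −3.00 ± 0.17 (SD) in the 10 mice at P6, −3.07 ± 0.25 in the 12 at P15 and −2.81 ± 0.20 in the 12 at 8 weeks. From P15 to 8 weeks it rose by 0.27 (permutation test, p = 0.00953, adjusted p = 0.011), with 0 of 12 mice at 8 weeks above every P15 mouse. The highest P15 mouse was P15 male 1, and without it the rise was 0.32 (permutation test, adjusted p = 0.000587) with 4 of 12 mice at 8 weeks above every P15 mouse. From P6 to 8 weeks it rose by 0.19 (p = 0.0231, adjusted p = 0.0248), and by 0.10 (adjusted p = 0.412, permutation test) with P6 female 6 added.

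Mef2a (ENSMUSG00000030557, chr7:67231163-67372858, minus strand) encodes a MADS-box factor whose sites mark enhancers used by microglia. Its level was 137 to 308 CPM at P6 (median 198), 106 to 442 at P15 (median 353) and 313 to 792 at 8 weeks (median 578). All 12 mice at 8 weeks were above every P6 mouse, and 7 of 12 at P15 were. The log2FC was 0.74 ± 0.167 from P6 to P15 (edgeR, FDR = 0.000328), 0.74 ± 0.156 from P15 to 8 weeks (FDR = 0.000266) and 1.48 ± 0.172 from P6 to 8 weeks (FDR = 3.97e-09), the last past 2-fold (glmTreat, FDR = 0.00399). With the GC tilt as a covariate the step from P15 to 8 weeks was 0.35 (edgeR, FDR = 0.00598, in a range of 1.87e-05 to 0.162 over the 17 alternatives) and that from P6 to 8 weeks 1.2.

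Mef2c (ENSMUSG00000005583, chr13:83504034-83667080, plus strand) encodes the family member that restrains microglial responses to inflammation. Its level was 260.0 to 509 CPM at P6 (median 309.9), 132 to 446 at P15 (median 364) and 272 to 559 at 8 weeks (median 461). Ages overlapped, and 3 of 12 mice at 8 weeks were above every P6 mouse. The log2FC was 0.07 ± 0.144 from P6 to P15 (edgeR, FDR = 0.675), 0.38 ± 0.135 from P15 to 8 weeks (FDR = 0.0224) and 0.45 ± 0.145 from P6 to 8 weeks (FDR = 0.00614). The transcripts of Mef2c (40.8% G and C) and Mef2a (42.0%) are the most A and T rich of the 9. With the tilt as a covariate the step from P15 to 8 weeks was 0.05 and not called (edgeR, FDR = 0.721, in a range of 0.0174 to 0.895 over the 17 alternatives), and the change from P6 to 8 weeks was 0.21. With the neuron markers as a covariate these were 0.03 and 0.06, and neither was called (edgeR, FDR = 0.895 and 0.766).

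**Figure D2:**
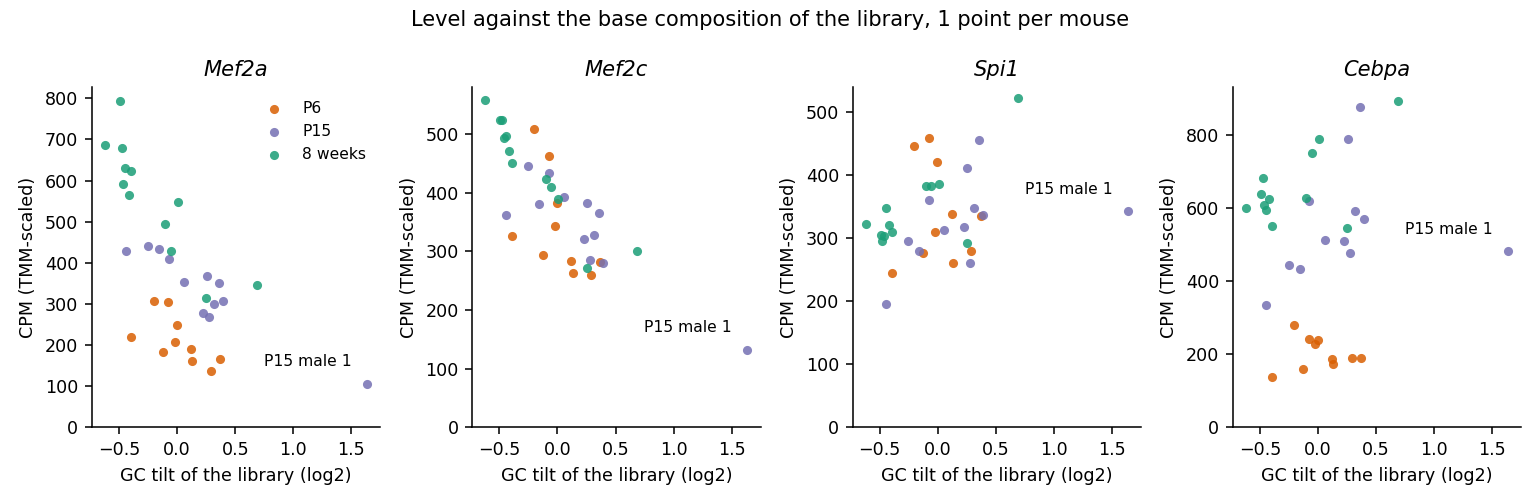
CPM of Mef2a, Mef2c, Spi1 and Cebpa (vertical axes, from 0) against the GC tilt of the library (horizontal axes, log2), 1 point per mouse coloured by age. Within an age the mice with high tilt tend to have low Mef2a and Mef2c, with P15 male 1 at 1.64 lowest in both (106 and 132 CPM), whereas in Spi1 and Cebpa that mouse (343 and 483 CPM) lies among the other P15 mice.

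The pair of MEF2 factors share this composition, and their ratio differed between ages with little overlap. The log2 ratio of Mef2a to Mef2c, per kb, was −0.82 to −0.47 at P6 (median −0.60), −0.22 to 0.34 at P15 (median 0.03) and 0.16 to 0.69 at 8 weeks (median 0.38). Every P15 mouse was above every P6 mouse, and 8 of 12 mice at 8 weeks were above every P15 mouse. The ratio rose by 0.65 from P6 to P15 (permutation test, p = 1e-05, adjusted p = 2e-05) and by 0.36 from P15 to 8 weeks (p = 6e-05, adjusted p = 9e-05). Without P15 male 1 these were 0.67 and 0.34.

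Maf (ENSMUSG00000055435, chr8:115682942-115707794, minus strand) encodes c-MAF, a leucine zipper factor of tissue macrophages. Its level was 558 to 1021 CPM at P6 (median 634), 498 to 1214 at P15 (median 939) and 673 to 1065 at 8 weeks (median 825). All ages overlapped, with 4 of 12 P15 mice and 1 of 12 mice at 8 weeks above every P6 mouse. The log2FC was 0.49 ± 0.122 from P6 to P15 (edgeR, FDR = 0.000898), −0.16 ± 0.114 from P15 to 8 weeks (FDR = 0.255) and 0.33 ± 0.122 from P6 to 8 weeks (FDR = 0.0151). The change from P15 to 8 weeks was called lower without P15 male 1 (log2FC −0.25, edgeR FDR = 0.0347) and with the GC tilt as a covariate (−0.35, FDR = 0.0113), within a range of 0.0113 to 0.361 over the 17 alternatives. The rise from P6 to 8 weeks was lost with the neuron markers as a covariate (log2FC 0.02), with the GC tilt as a covariate (0.21), with library size alone as the scaling (0.20) and without P6 female 3 (0.28, edgeR FDR = 0.0576, in a range of 0.00355 to 0.927 over the 17 alternatives).

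**Figure D3:**
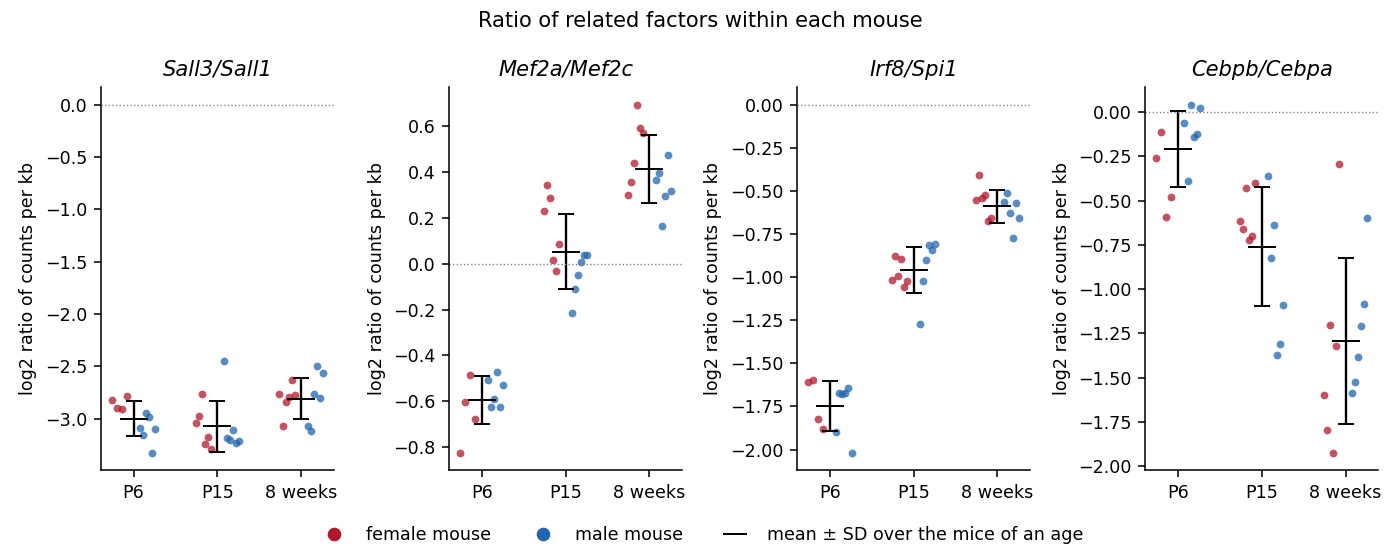
Log2 ratio of counts per kb (vertical axes) of pairs of related factors within each of 34 mice by age (horizontal axes). Points are mice (red for females, blue for males), black bars and whiskers are the mean and SD over the 10, 12 and 12 mice of an age, and the dotted line is equal level per kb. Irf8/Spi1 is higher at each later age with no overlap, Cebpb/Cebpa is lower at 8 weeks than at P6, and Sall3/Sall1 stays between −3.33 and −2.45.

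Counted together, 6 of the 9 factors were called higher at P15 than at P6 (Cebpa, Sall1, Sall3, Irf8, Mef2a and Maf), where 30.4% of all genes tested were called higher, and 0 were called lower, where 31.4% of all genes were. From P15 to 8 weeks 5 were called higher (Mef2a, Runx1, Irf8, Sall3 and Mef2c), against 24.0% of all genes, and 0 lower, against 23.9%. From P6 to 8 weeks 8 were called higher, against 37.8% of all genes, and 0 lower, against 36.6%. In none of the 3 comparisons did a factor fall at an unadjusted p under 0.05, and limma-voom and DESeq2 also called 0 lower. Of the 17 alternatives, 3 called Maf lower from P15 to 8 weeks and 1 called Spi1 lower from P6 to 8 weeks. Past 2-fold upward were 1 factor at P15 against P6 (Cebpa, 4.87% of all genes), 0 at 8 weeks against P15 (1.2%) and 4 at 8 weeks against P6 (Cebpa, Mef2a, Sall3 and Irf8, 11.5%). In the last comparison limma-voom and DESeq2 each called 3 past 2-fold, without Irf8. The median log2FC of the 9 was 0.74, 0.38 and 1.21 in the order P15 against P6, 8 weeks against P15 and 8 weeks against P6, and that of all genes −0.01, 0.02 and 0.04. These comparisons share mice, so their counts are not independent of each other. With library size alone as the scaling, the median of all genes was −0.14 at P15 against P6 and −0.10 at 8 weeks against P6, and 6 and 7 factors were called higher.

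Of the 8 neuron markers, 0 were called higher and 6 lower from P15 to 8 weeks (median log2FC −1.2). From P6 to P15 3 were higher and 3 lower (median −0.01). Their mean log2 CPM was 5.43 ± 0.49 (SD) at P6, 5.34 ± 0.78 at P15 and 3.91 ± 0.71 at 8 weeks. As a covariate this mean could therefore shift the P6 to P15 estimates little, and the calls kept there are no contrast to those lost later. With their mean level as a covariate 6 factors were called higher at P15 than at P6, 0 were higher at 8 weeks than at P15 and 1, Maf, was lower. Of all 17612 genes, 5517 were called higher in the first of these comparisons, and 3078 higher and 3070 lower in the second. In that fit the log2FC from P15 to 8 weeks was 0.11 for Sall3, 0.07 for Irf8, 0.12 for Runx1, 0.35 for Mef2a and 0.03 for Mef2c. From P6 to 8 weeks 5 factors were higher in it (Cebpa 1.23, Mef2a 1.04, Sall3 1.04, Irf8 0.78 and Sall1 0.72), and none was past 2-fold. Over all genes 5800 were higher there, 1729 of them past 2-fold. The part of neuronal RNA in the changes was not tested beyond this fit. Age and neuron markers vary together in the comparisons with 8 weeks, where the fit cannot tell them apart.

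**Figure D4:**
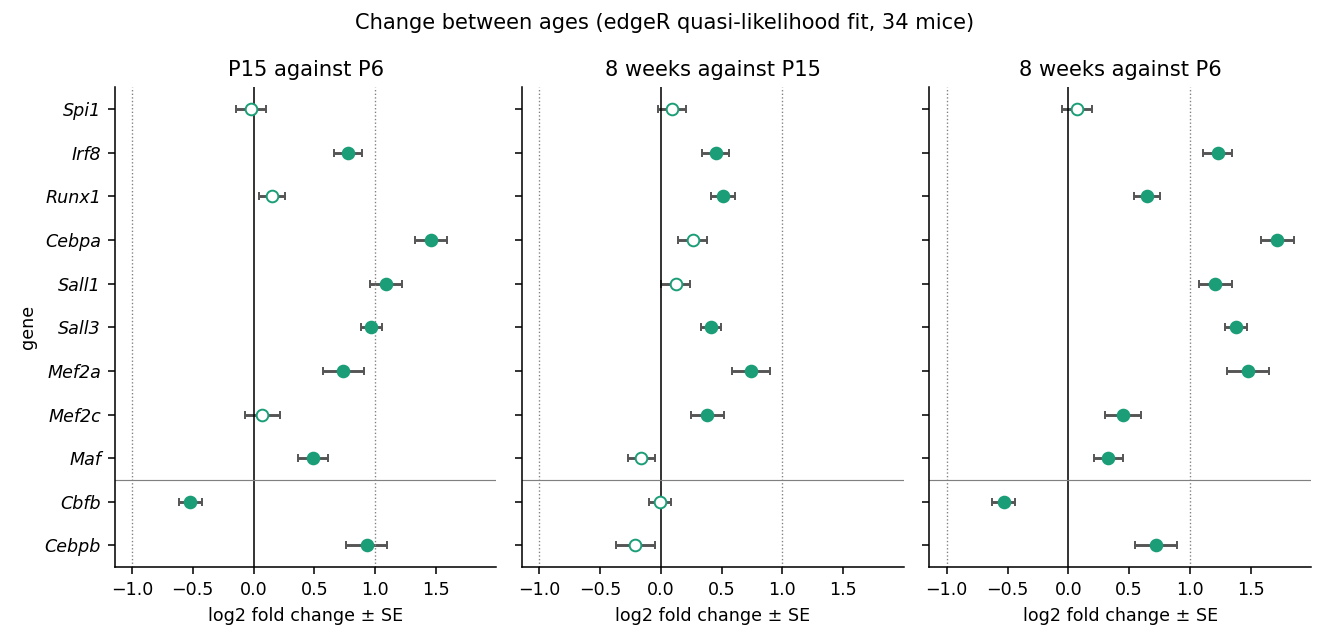
Log2 fold change with its standard error (horizontal axes) of the 9 factors and, under the grey line, of Cbfb and Cebpb (vertical axis) for the 3 comparisons between ages, from the edgeR fit of 34 mice. Filled points have an FDR below 0.05, open points do not, and dotted lines mark 2-fold. From P6 to 8 weeks the factors run from 0.07 for Spi1 to 1.72 for Cebpa.

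Compared per length (CPM per kb of merged exons, mean ± SD), Spi1 was the most abundant factor at P6 (125 ± 29.2), followed by Maf (84.6 ± 19.1), Cebpa (77.0 ± 16.4) and Sall1 (72.2 ± 16), and these 4 neighbours overlapped between mice. At 8 weeks the order was Cebpa (250.2 ± 39.2), Sall1 (162 ± 21.1), Spi1 (129 ± 24.2), Maf (103 ± 14.8) and Irf8 (85.2 ± 11.5), and each of Sall1, Spi1 and Maf overlapped its next lower neighbour whereas Cebpa lay wholly above Sall1. Mef2a (38.0 ± 9.70), Mef2c (28.2 ± 5.65), Sall3 (23.0 ± 2.83) and Runx1 (12 ± 1.5) followed, with Runx1 the lowest of the 9 at every age. Annotated length affects this order. Taken per kb of the longest transcript, Irf8 moved from the fifth place to the fourth at P6 and to the second at 8 weeks (173 ± 23.3), and Sall3 was the lowest at P6 (9.40 ± 1.14) and 8 weeks (24.4 ± 2.99). By that length the mean of Sall1 also stayed below that of Spi1 at P15 (149 against 160.3) and at 8 weeks (162 against 171). By mean log2 CPM over the ages, which is not per length, Maf ranked 108th, Sall1 153rd and Runx1 1762nd of the 17612 genes tested.

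**Figure D5:**
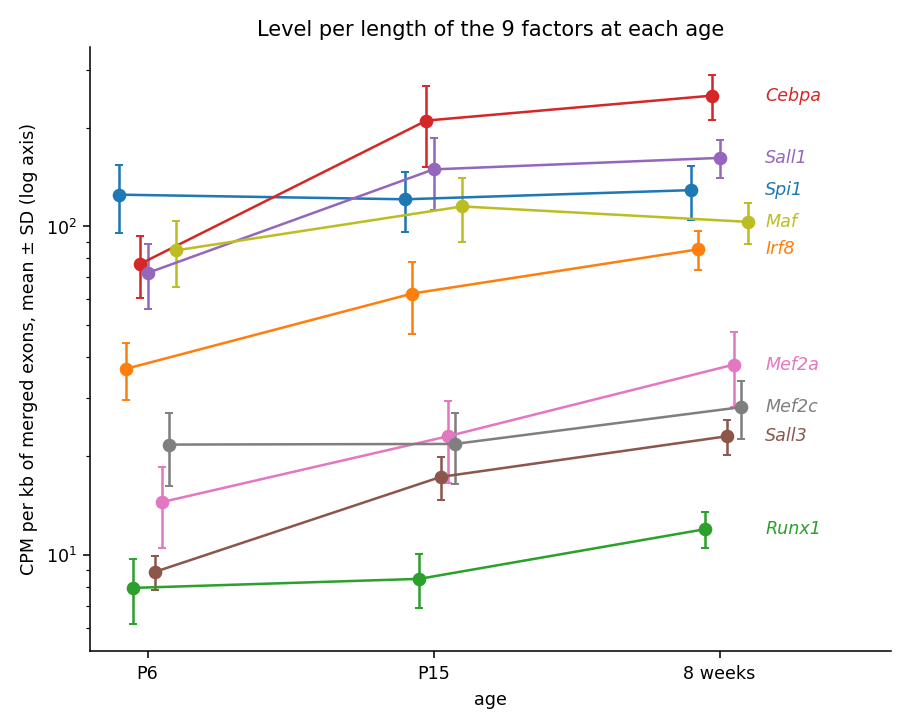
CPM per kb of merged exons (vertical axis, log scale, mean and SD over 10, 12 and 12 mice) of the 9 factors at each age (horizontal axis). By this length Cebpa and Sall1 cross Spi1 between P6 and P15, and Mef2a crosses Mef2c, while Runx1 is lowest throughout.

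Between the sexes, 0 of the 9 factors were called at P6 (edgeR, FDR below 0.05), where 0.0511% of all genes were called, 0 at P15 (0.0681%) and 0 at 8 weeks (0.114%). At P6 the fitted level of each of the 9 was higher in males, by a log2FC of 0.07 (Sall3) to 0.58 (Mef2a), and Runx1 (0.42 ± 0.158), Mef2a (0.58 ± 0.249) and Mef2c (0.50 ± 0.217) missed the threshold (edgeR, FDR = 0.696 each) with an unadjusted value under 0.05, as 7.1% of all genes had. At P15 and at 8 weeks 0 of the 9 had one, against 18.2% and 2.94% of all genes, and limma-voom and DESeq2 also called 0 of the 9 at each age. Mef2a, for example, was 163 ± 21.4 CPM (SD) in the 4 P6 females and 245 ± 52.1 CPM in the 6 P6 males, which overlapped. The interaction of sex with age called 0 factors and 0.0% of all genes for P15 against P6, 0 and 0.0% for 8 weeks against P15, and 0 and 0.0% for 8 weeks against P6. The largest was that of Mef2a from P6 to P15, where the change in males minus that in females was −1.01 ± 0.332 on the log2 scale (edgeR, FDR = 0.152). Unadjusted, 3 interactions were under 0.05 from P6 to P15 (Mef2a, Mef2c and Runx1), 0 from P15 to 8 weeks and 1 from P6 to 8 weeks (Mef2a), against 20.4%, 3.41% and 5.1% of all genes, and limma-voom and DESeq2 also called 0 of the 9 factors. Over all genes limma-voom called 0 interactions, whereas DESeq2 called 58 positive and 87 negative ones from P6 to P15 and 2 positive ones from P15 to 8 weeks. The GC tilt moved with sex at P6, where it was 0.12 to 0.37 in the females and −0.39 to −0.003 in the males, so that at this age the sexes and the tilt cannot be told apart. At P15 it lay the other way, at −0.44 to 0.39 in the females (median −0.12) and 0.06 to 1.64 in the males (median 0.27), which overlapped. Without P15 male 1 the interaction of Mef2a from P6 to P15 was −0.79, and that of Runx1 was no longer under 0.05 unadjusted. With the tilt as a covariate the difference between the sexes at P6 was 0.24 for Mef2a, 0.21 for Mef2c and 0.32 for Runx1, in a range of 0.05 (Sall3) to 0.37 (Spi1) over the 9. In that fit the interaction of Mef2a from P6 to P15 was −0.27, and 0 of the 9 factors had an unadjusted interaction under 0.05 in any of the 3 comparisons.

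Most relatives of the 9 from the same families rose too. Of 27 listed, 23 were tested, and 18 were higher and 2 lower at 8 weeks than at P6 (median log2FC 0.69). Over all genes tested 37.8% were higher and 36.6% lower in that comparison (median 0.04), which is the background for each list of genes given here. Among the largest rises were those of Cebpd (2.15), which encodes a further C/EBP protein, and Cebpg (1.81), which encodes a C/EBP protein lacking an activation domain. The falls were those of Maff (−0.74), a small MAF without an activation domain, and Cbfb.

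Among 27 other factors of myeloid cells, 16 were higher and 5 lower at 8 weeks than at P6 (median 0.51). The largest rises were those of Myc (1.60), the growth regulator, Hhex (1.42), a homeobox factor, and Bhlhe41 (1.29), a repressor expressed by tissue macrophages. The largest falls were those of Myb (−2.76), which definitive blood progenitors need and yolk sac macrophages do not, Tfec (−2.43), a relative of MITF, and Id1 (−1.24), an inhibitor of helix-loop-helix factors. The 5 markers of dividing cells fell over the same interval, with summed levels of 460.1 to 772 CPM at P6 and 11 to 20 CPM at 8 weeks, and the part of dividing cells in these changes was not tested.

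Immediate-early factors, which are induced within minutes by stimulation or by handling of cells, were in part higher at 8 weeks: 9 of 13 were higher and 1 lower than at P6 (median 0.57), and 8 were higher and 0 lower than at P15, against 24.0% and 23.9% of all genes. The largest rises from P6 were those of Jun (1.61), Klf4 (1.26) and Junb (1.08), and the fall was that of Ier2 (−0.44). Of 11 genes recognised as targets of the lineage factors, 11 were higher at 8 weeks than at P6 and 8 were past 2-fold, against 11.5% of all genes (median 1.66), led by Tmem119 (3.10), the microglial surface protein, Slc2a5 (2.54), the fructose transporter, and Csf3r (2.47), a receptor for granulocyte growth factor. Tmem119, P2ry12, Siglech and Csf1r, among others, stand both among these targets and among the microglia markers.

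Monocyte and border macrophage markers moved in both directions, with 2 of 9 higher and 4 lower at 8 weeks than at P6 (median −0.12) and a summed level of 724 to 1577 CPM at P6, 289 to 1031 at P15 and 366 to 719 at 8 weeks. Ccr2 (3.05) and Ly6c2 (2.7), which mark monocytes, rose, and Lyve1 (−2.57), Pf4 (−1.56) and Mrc1 (−1.29), which mark border macrophages, fell. These are the largest called changes. From P6 to 8 weeks 3 of the 9 markers were not called, so the named genes do not stand for all markers of either cell type. Markers of lymphocytes and neutrophils were low, with a summed level of 16.3 to 47.0 CPM at P6 and 37.1 to 231 CPM at 8 weeks, and 8 of the 9 tested rose. These cells can carry mRNA of Spi1, Runx1, Irf8 and Cebpa, and their part in the levels was not tested.

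Correlations over the 34 mice pool the ages, and the part of age and of the share of microglial RNA in them was not tested. For each factor, the 3 protein-coding genes whose log2 CPM had the highest Pearson r with it, among 14786 compared, are given as a description. For Cebpa these were Itgb5 (r = 0.990), Sec14l1 (0.988) and Hps4 (0.987), and for Irf8 Mcfd2 (0.988), Smap2 (0.988) and Il10rb (0.987). Mef2a was followed most closely by Dennd4a (0.989), Ttc39b (0.984) and Slc16a7 (0.982), and Mef2c by Abi1 (0.976), Arhgef6 (0.969) and Nek7 (0.966). Sall1 was nearest to Elmo1 (0.986), Cep68 (0.984) and Tgfa (0.983), and Sall3 to Hrh2 (0.984), Csf3r (0.983) and Capn3 (0.983). For Spi1 they were Efhd2 (0.953), Coro1a (0.945) and Vamp8 (0.936), for Runx1 Wipf1 (0.975), Lcp1 (0.946) and Scarb2 (0.943), and for Maf Osbpl11 (0.926), Marcks (0.915) and Rbm47 (0.897).

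Several annotated genes overlap a factor. Fragments had been counted by strand, so the antisense partners Gm15655 (Maf, at most 54 counts in a mouse), Gm26626 (Runx1, at most 3), Gm45091 (Cebpa, at most 65) and Lysmd4 (Mef2a, at most 653) were separable from their partners and far less counted. Gm44667, on the strand of Mef2a and inside its introns, was 1.65 to 8.96 CPM at P6, 2.03 to 22.5 at P15 and 4.58 to 35.3 at 8 weeks, and rose by a log2FC of 2.15 ± 0.324 from P6 to 8 weeks (edgeR, FDR = 5.72e-07). Gm44668, also on the strand of Mef2a and inside its introns, had at most 118 counts in a mouse. It rose by a log2FC of 2.52 ± 0.362 from P6 to 8 weeks (edgeR, FDR = 2.47e-07). Gm20388, on the strand of Irf8, had 0 counts in all mice.

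P6 female 6, left out of the values above, had less mRNA of every one of the 9 factors than any other P6 mouse. Scaled together with all 35 mice, its level of Sall1 was 151 CPM against 309.6 to 567 in the other 10, of Spi1 139 against 247 to 461, of Irf8 89.6 against 203 to 369, of Cebpa 81.3 against 139.9 to 277 and of Sall3 54.1 against 57.2 to 80.4. Its summed microglia markers were 5110.2 CPM and its neuron markers 1651 CPM. With it included the counts of factors called higher stayed at 6, 5 and 8.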

How the data were processed

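CD45+ve mRNA libraries of 35 mice were analysed. The authors aligned directional paired-end reads to GRCm38/mm10 with STAR and counted fragments by strand with featureCounts, and deposited raw counts per gene, unfiltered and not normalised. The annotation release is not given in the sources used here, so names, coordinates and lengths came from GENCODE M21, which named 55141 of 55401 identifiers. No pair of libraries within a group was a copy of another (lowest chi-square per gene 12.8 over 85 pairs).

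The 9 factors and all gene lists were chosen with earlier results of these data known. Counts were fitted in edgeR 4.0.16 (R 4.3.3; TMM scaling, robust quasi-likelihood, 1 mean per age and sex group, 34 mice), and a gene was called at a Benjamini-Hochberg FDR below 0.05 (glmQLFTest, two-sided; glmTreat for 2-fold). Age contrasts averaged the sexes. The SE is the log2FC divided by the square root of F. Ratios had 0.5 added to both counts. The script was tested on simulated data. From each gene list, at most the 3 largest called rises and 3 largest called falls from P6 to 8 weeks were named, besides the 9 factors, Cbfb, Cebpb and overlapping genes, and the monocyte markers named are those of this rule. Some results within this rule, 1 of the 5 ratios among them, are not reported here. Alternatives included limma 3.58.1, DESeq2 1.42.0, other scalings and filters, the replicate block and covariates.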

Additional observations from a re-analysis of the deposited data

Results flagged for a closer look

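Of 54 sets of levels (9 factors in 6 groups of age and sex), 2 held a mouse far from the rest of its group, by a gap to its neighbour that was a large share of the range, and chance alone flags about 1 in 20 such sets. Runx1 in 8-week female 1 was 98.6 CPM, the lowest of that group, whose highest was 158. Cebpa in P6 female 2 was 173 CPM, the lowest of the 4 females, whose highest was 191.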

How the results depend on the processing

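Of 459 recomputed log2FC of single factors (17 alternatives, 9 factors, 3 comparisons of ages), 441 kept their side of the threshold, 12 lost the call, 5 gained it and 1 reversed, and of 185 counts of factors 178 stayed within 1.5 times the value given. Of the 441, 10 had the other sign with neither value called, among them Sall1 (−0.30), Spi1 (−0.25) and Cebpa (−0.16) from P15 to 8 weeks with the neuron marker covariate. The reversal was Spi1 from P6 to 8 weeks, −0.32 with the same covariate. With this covariate the factors called from P15 to 8 weeks were 0 higher and 1 lower, and from P6 to 8 weeks 5 higher, 1 lower and 0 past 2-fold. Of all 17612 genes the same fit called 3078 higher and 3070 lower from P15 to 8 weeks. From P6 to 8 weeks it called 5800 higher and 5355 lower. With the GC tilt covariate, chosen after the data were seen, 1 factor, Maf, was lower from P15 to 8 weeks, and leaving out one of 5 mice at a time gave 0 to 1, the 1 being Maf without P15 male 1. The cause of these changes was not tested. The Sall3 to Sall1 ratio from P6 to 8 weeks was 0.10 with all 35 mice, and the other 104 recomputed ratios kept their direction and call. Single mice were left out for the 4 P6 females and P15 male 1, which gave 7 to 8 factors higher and 3 to 5 past 2-fold from P6 to 8 weeks. Same-numbered mice are different animals, their deviations from the group means correlated at 0.03 on average over 80 pairs, and 2 of 34 mice correlated best with their own number. A replicate block left 6, 5 and 8 factors higher in the 3 comparisons and changed no call of a factor. Depth is no limit for these factors, whose lowest count in any of the 34 mice was 1840.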
